A study of Mus musculus with 8 samples.

Results

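Interferon-stimulated genes are genes whose transcripts accumulate after a cell has sensed interferon, and 40 of them, of 55359 genes in the count table, were followed in cultured mouse mast cells. The 40 were taken by gene name, and the set was chosen from measured values of these same libraries, because interferon-inducible guanylate-binding proteins differed between the lines PMC-306 and PMC-303. Values of PMC-306 beside PMC-303 are for this reason given as a description, without a test. Peritoneal mast cells (PMCs) were cultured from the peritoneal cavity of wild-type mice of C57BL/6x129/Sv background, and all cultures were untreated. Primary WT PMCs came from 3 female and 3 male cultures, labelled as biological replicates 1 to 3 of each sex. PMC-306 and PMC-303 are cell lines that arose spontaneously in such wild-type cultures, and each was sequenced as 1 library. The lines were kept in medium with less FCS and SCF (stem cell factor) than the primary cultures, so that transformation and medium cannot be told apart in any comparison of a line with primary cells. The lines also carry chromosomal aberrations, which differ between them. The age of the mice is not given in the sources used here, and nothing in the labels says that each primary culture came from a different mouse.

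Type I interferons (the alpha and beta interferons) and type II interferon (interferon gamma) bind separate receptors at the cell surface, and receptor-associated Janus kinases then activate STAT transcription factors. A complex of STAT proteins with IRF9 binds the interferon-stimulated response element (ISRE) in promoters, while STAT dimers formed after interferon gamma bind gamma-activated sites (GAS). The induced genes encode sensors of viral RNA, enzymes and membrane proteins that block viral replication, immunity-related GTPases that attack the vacuoles of intracellular microbes, and regulators that end the response. Many of them are transcribed at a low level without added interferon, and mast cells are among the cells that carry interferon receptors.

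Each library held 15918758 to 24180226 estimated counts, and values are given as CPM (counts scaled to a common library size) with the trimmed mean of M values. A count of 3, used as the floor of detection, corresponded to 0.123 to 0.187 CPM, and this floor and all intervals cover counting error only. Of the 320 cells that hold the members' counts, 17 (5.31%) had been rewritten by a spreadsheet program and were restored to numbers. The 11 mast cell markers summed to 40382 and 43590 CPM in PMC-306 and PMC-303 and to 47171 to 73881 CPM in primary cultures, with most of the sum from Cpa3 and Cma1 and with Mrgprb2 between 1.85 and 13.6 CPM. Kit, Fcer1a, Il1rl1 and Anpep were below every primary culture in both lines. Ms4a2 and Cma1 in PMC-306 and Mrgprb2 in PMC-303 were also below the primary range. Gata2 and Mitf in PMC-306 and Hdc in PMC-303 were above it. Of 6 plasmacytoid dendritic cell markers, 5 were at or under the floor in every library, as were all 4 neutrophil and all 6 fibroblast or mesothelial markers, and the sixth, Tcf4, had 7.07 and 0.206 CPM in PMC-306 and PMC-303 beside 1.26 to 47.9 CPM in primary cultures. Among B cell markers Cd79a and Ms4a1 were at or under the floor, while Ighm had 6.33 and 21.4 CPM in PMC-306 and PMC-303 beside 0.577 to 12.5 CPM in primary cultures. The 9 macrophage markers summed to 452 CPM in PMC-306, against 8.93 CPM in PMC-303 and 7.75 to 68.9 CPM in primary cultures. In PMC-306 Adgre1 gave 426 CPM of this sum. Cd68, at 13.9 CPM there, was within the primary range of 1.48 to 17.8 CPM. Icam2, at 10.6 CPM, was above the primary range of 0.0879 to 1.10 CPM. Lyz2, at 1.13 CPM in PMC-306, was below the primary range of 1.18 to 18.0 CPM, and Csf1r and C1qc were under the floor there. C1qa, C1qb and Cd14 were at or under the floor throughout. Mitochondrial transcripts took 2.32% and 2.41% of the counts in PMC-306 and PMC-303 and 4.02% to 6.97% in primary cultures. In PMC-303, 4 Y-linked transcripts stood at 0.977% to 1.55% of the mean of the male cultures, where no female culture exceeded 0.0439 CPM, and PMC-306 had them at 51.4 to 122 CPM. The part of these differences in the member values was not tested.

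The promoters were examined first, since the search for interferon motifs does not use the libraries. RefSeq promoter windows, from 250 bases before to 50 bases after the transcription start (build GRCm38.p6), were found for 30 of the 40 members. Ifi27, Iigp1, Mx1, Mx2, Oas2, Parp14, Parp9, Rtp4, Usp18 and Zbp1 had no entry. The core of the ISRE, spelled GAAANNGAA and searched on both strands, occurred in the window of 17 of the 30 members (56.7%), and in that of 2638 of all 27025 genes with an entry (9.76%). The GAS spelling TTCNNNGAA occurred in 9 of the 30 members and in 2582 of all genes (9.55%). A match is a description of letters and not a site of binding. Isg15 and Ifit3 are shown because they hold 3 cores each but had almost no transcript, Bst2 and Irgm2 because they hold both motifs and were well expressed, Ifih1 and Rsad2 because their levels were low in a line, and Ifi47 and Oasl2 because they changed between lines and primary cells and hold neither motif. Capitals mark the matches, and sequences run 5′ to 3′ on the strand of the gene. Each shown stretch is the longest part of the 250 bases before the RefSeq start without an annotated exon, placed on GRCm39 by an exact match. The stretch of Irgm2 lies within the annotated gene. These 8 were chosen after their values were seen.
Isg15, chr4:156285304-156285525, minus strand: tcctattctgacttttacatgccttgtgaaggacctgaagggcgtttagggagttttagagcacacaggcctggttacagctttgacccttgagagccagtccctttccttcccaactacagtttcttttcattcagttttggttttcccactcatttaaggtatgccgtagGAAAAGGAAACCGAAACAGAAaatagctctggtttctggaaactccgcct
Ifit3, chr19:34560679-34560898, plus strand: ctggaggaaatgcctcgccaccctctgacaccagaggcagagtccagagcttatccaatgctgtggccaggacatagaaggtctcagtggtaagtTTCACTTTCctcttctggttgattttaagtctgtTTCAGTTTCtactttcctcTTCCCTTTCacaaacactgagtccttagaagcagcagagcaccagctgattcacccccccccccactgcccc
Bst2, chr8:71990117-71990366, minus strand: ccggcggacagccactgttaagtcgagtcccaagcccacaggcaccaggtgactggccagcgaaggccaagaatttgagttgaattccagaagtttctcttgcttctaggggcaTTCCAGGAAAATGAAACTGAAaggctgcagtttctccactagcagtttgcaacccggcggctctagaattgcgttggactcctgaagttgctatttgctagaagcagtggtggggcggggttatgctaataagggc
Irgm2, chr11:58105553-58105788, plus strand: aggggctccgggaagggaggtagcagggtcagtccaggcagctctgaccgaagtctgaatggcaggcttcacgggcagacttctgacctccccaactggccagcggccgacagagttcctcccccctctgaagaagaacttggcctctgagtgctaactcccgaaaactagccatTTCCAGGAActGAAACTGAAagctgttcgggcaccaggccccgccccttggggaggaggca
Ifih1, chr2:62476608-62476849, minus strand: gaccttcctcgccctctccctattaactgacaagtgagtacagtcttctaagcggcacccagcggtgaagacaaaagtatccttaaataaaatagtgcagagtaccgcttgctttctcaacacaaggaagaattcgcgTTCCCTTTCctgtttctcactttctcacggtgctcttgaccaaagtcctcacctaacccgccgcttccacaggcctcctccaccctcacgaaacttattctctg
Rsad2, chr12:26506452-26506701, minus strand: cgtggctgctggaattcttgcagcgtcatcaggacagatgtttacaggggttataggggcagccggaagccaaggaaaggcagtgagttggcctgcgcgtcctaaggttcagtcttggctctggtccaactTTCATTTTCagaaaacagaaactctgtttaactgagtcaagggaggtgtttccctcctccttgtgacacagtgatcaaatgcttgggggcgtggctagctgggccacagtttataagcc
Ifi47, chr11:48967164-48967411, plus strand: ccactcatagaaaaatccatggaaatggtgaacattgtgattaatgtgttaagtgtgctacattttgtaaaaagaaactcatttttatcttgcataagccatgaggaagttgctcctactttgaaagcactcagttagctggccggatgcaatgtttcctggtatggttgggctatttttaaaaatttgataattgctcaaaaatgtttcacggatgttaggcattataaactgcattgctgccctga
Oasl2, chr5:115034745-115034994, plus strand: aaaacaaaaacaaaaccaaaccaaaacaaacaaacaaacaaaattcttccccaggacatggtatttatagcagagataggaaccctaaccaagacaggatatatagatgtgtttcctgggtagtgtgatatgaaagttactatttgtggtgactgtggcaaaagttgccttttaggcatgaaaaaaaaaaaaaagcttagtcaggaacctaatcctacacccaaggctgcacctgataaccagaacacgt

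In Isg15 the 3 cores overlap, starting 78, 72 and 66 bases before the start site, and together form 1 capital run. In Bst2 the GAS spelling, which starts 136 bases before the start site, overlaps the first of 2 ISRE cores. The GTPase genes Irgm2, Igtp and Tgtp1 share an arrangement in which the GAS spelling is followed by a core, at 75 and 64 bases before the start in Irgm2, 45 and 34 bases in Igtp and 88 and 77 bases in Tgtp1. Oas1a holds 2 cores, 20 and 14 bases before the RefSeq start, and the GAS spelling 98 bases before it. Ifih1 holds a further core 32 bases after its start, outside the stretch shown.

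Among primary WT PMCs some members were well expressed and others nearly silent. Of the 40 members, 25 had a mean of at least 1 CPM in primary cultures, and 6 (Oas2, Ifi44, Ifit3, Mx2, Iigp1 and Tgtp1) had 3 counts or fewer in every one of the 8 libraries. Iigp1, an immunity-related GTPase strongly induced by interferon gamma in other cells, had 0 counts throughout, which allows up to 0.187 CPM in the shallowest library. Isg15, a ubiquitin-like modifier of other proteins, had 0.735, 0.351 and 0.369 CPM in female cultures 1 to 3 and 0.511, 0.311 and 0.682 CPM in male cultures 1 to 3, beside 0.246 and 0.370 CPM in PMC-306 and PMC-303. Ifit1, Mx1 and Rtp4, classical antiviral effectors, stayed at or under 0.413 CPM in all 8 libraries. For Mx1 and Ifit1 the lines lay within the primary range. Isg15 in PMC-306 lay below it on 5 counts.

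Per transcript length, as TPM (transcript abundance scaled to a common total), the highest primary levels were those of Ifi27, a mitochondrial and nuclear membrane protein, with a median of 63.5 TPM (range 30.8 to 122), and Bst2, which tethers virus particles to the cell surface, with 57.4 TPM (53.1 to 65.2). Samd9l, an inhibitor of viral translation, had 51.8 TPM (42.8 to 56.3), Ifi35 had 36.5 TPM (29.6 to 40.9), and the transcription factor gene Irf1 had 31.9 TPM (29.0 to 36.9). Neighbours in this order mostly overlapped in range, so that Ifi27, Bst2 and Samd9l cannot be ordered among themselves over the 6 cultures. By CPM the median coefficient of variation among the primary cultures was 13.7% over the 25 members and 11.5% over 12504 genes at the same level. The most variable members were Rsad2 (81.8%), Ifih1 (54.3%) and Trim30a (52.6%).

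**Figure D1:**
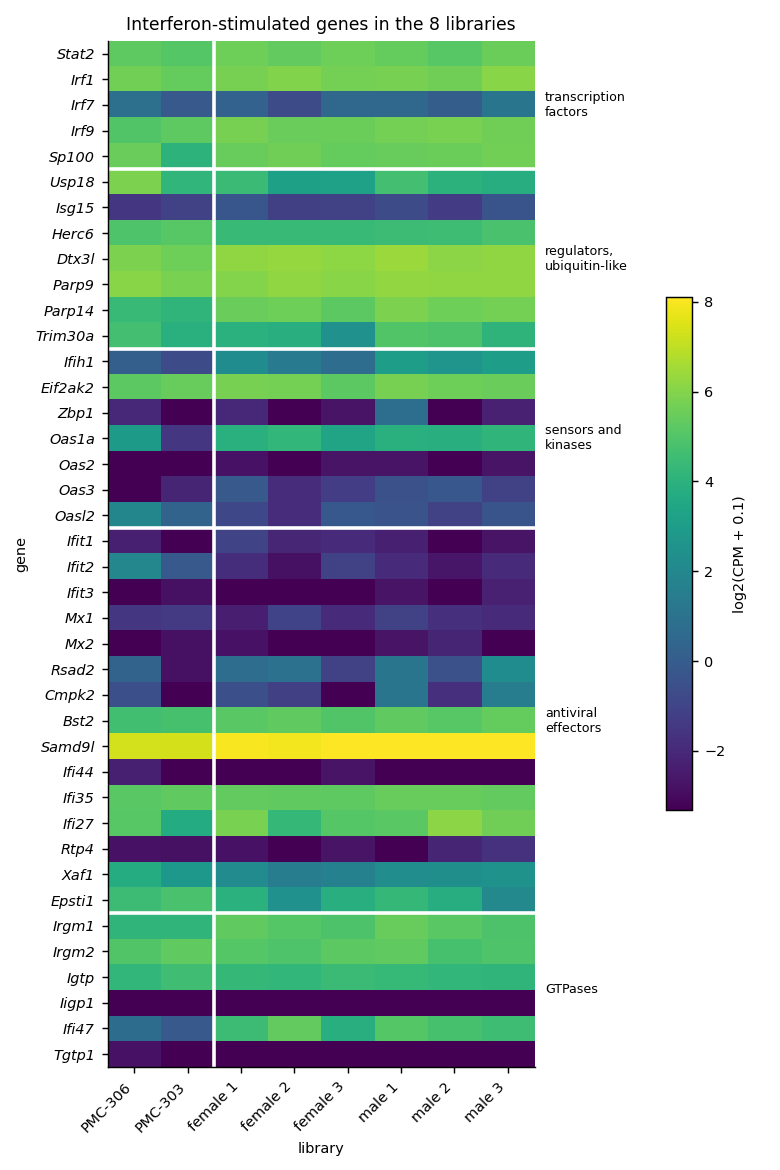
Level of the 40 members in each library as log2(CPM + 0.1), with genes in rows by role, the 2 lines in the left columns and the 6 primary cultures to the right. Samd9l is brightest in every library, Isg15, Ifit1, Ifit3, Mx1 and Mx2 are dark throughout, and Ifi47 and Ifih1 are darker in both lines than in the primary cultures.

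**Figure D2:**
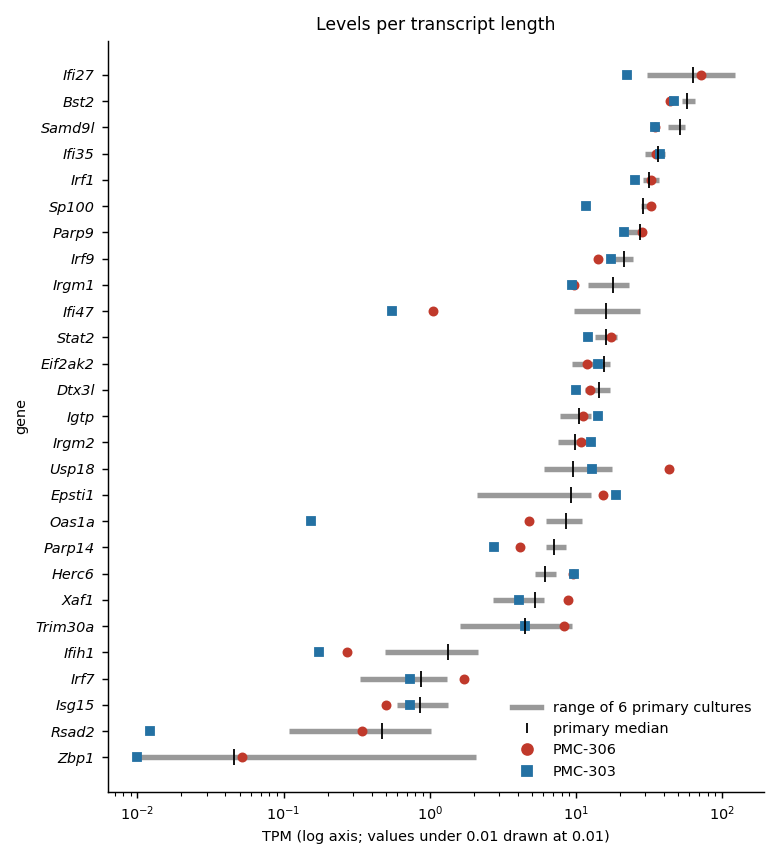
Levels per transcript length (TPM, log axis) of the 27 members that reached 1 TPM in a primary culture, with grey bars for the range of 6 primary cultures, ticks for their median, circles for PMC-306 and squares for PMC-303. Ifi47 and Ifih1 lie below the primary range in both lines, Oas1a is far below it in PMC-303, and Usp18 lies above it in PMC-306.

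Against primary WT PMCs the lines held less transcript of several members and more of a few, and the genes were partly shared. In PMC-306, 4 members were at least 2-fold higher than the primary mean and above all 6 cultures (Ifit2, Oasl2, Usp18 and Xaf1), and 5 were at least 2-fold lower and below all 6 (Ifi47, Ifih1, Irgm1, Oas1a and Parp14), of 27 with at least 1 CPM. Over all 13064 genes at this level, 10.2% were called higher and 9.19% lower in PMC-306. In PMC-303, 2 members were higher (Epsti1 and Oasl2) and 8 lower (Ifi27, Ifi47, Ifih1, Irgm1, Oas1a, Parp14, Rsad2 and Sp100), of 26 with at least 1 CPM, where 10.4% of 13024 genes were called higher and 8.09% lower. Ifit2 and Oasl2 met the 1 CPM limit only through the line in which they were high, and Ifih1, and in PMC-303 also Oas1a, Rsad2 and Ifi47, only through the primary cultures, so that these members had to differ. The median log2 fold of the members that met the limit was -0.16 in PMC-306 and -0.40 in PMC-303, beside -0.01 and 0.02 over all genes, as a description. Several calls lay close to the limit, with Oas1a (2.04-fold) and Irgm1 (2.01-fold) just inside it in PMC-306 and Epsti1 (1.86-fold) just outside, and Oasl2 (2.01-fold) and Irgm1 (2.00-fold) just inside it in PMC-303. Each line has 1 library, so these calls have no replicate check, and both lines were set against the same 6 primary cultures. In bulk RNA, fewer cells of a type and less RNA per cell cannot be told apart.

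With both lines taken as a group of 2 against the 6 primary cultures, limma on log2(CPM + 0.1) called 4 members higher in the lines (Herc6, Ifit2, Oasl2 and Xaf1) and 10 lower (Bst2, Dtx3l, Ifi47, Ifih1, Irf9, Irgm1, Oas1a, Oas3, Parp14 and Samd9l), of 30 tested, at an adjusted p under 0.05. Over all 14525 genes tested, 18.3% were called higher and 15.5% lower, so that changes between lines and primary cells were common in general. The other 10 members were under the filter on low counts, and Ifit2 passed that filter only through the lines and Oas3 only through the primary cultures, so that the direction of these calls was set by the filter and neither is read as a result. By role, 1 of 5 transcription factors and nuclear body genes, 3 of 7 regulators, 4 of 5 tested sensors and kinases, 4 of 9 tested effectors and 2 of 4 tested GTPases were called, Ifit2 and Oas3 included. With plain CPM in place of the scaled values the median of all genes moved by 0.11 on the log2 scale towards the lines, and 67.1% of all calls were then higher in the lines where the main scaling gave 54.1%, but the members were called as before, 4 higher and 10 lower.

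**Figure D3:**
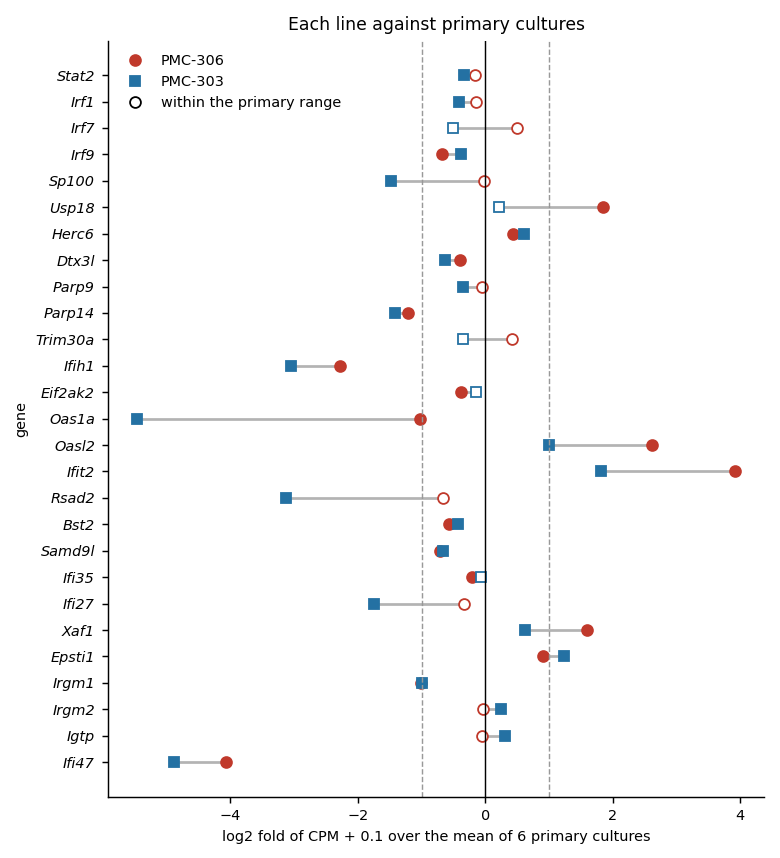
Log2 fold of CPM + 0.1 in PMC-306 (circles) and PMC-303 (squares) over the mean of the 6 primary cultures, for the 27 members with at least 1 CPM in a line or on average in primary cultures. Open symbols lie within the primary range and dashed lines mark 2-fold. Ifi47, Ifih1, Parp14, Irgm1 and Oas1a are left of the dashed line in both lines. Oas1a is just left of it in PMC-306 and far left in PMC-303. Ifit2, Usp18 and Xaf1 are to the right in PMC-306.

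Of the transcription factors of the pathway Irf9 passed the test, and Sp100 was low in PMC-303 alone. Irf9, the DNA-binding subunit of the ISRE complex, had 31.7 and 38.9 CPM in PMC-306 and PMC-303, against 54.7, 45.3 and 45.7 CPM in female cultures 1 to 3 and 53.2, 56.4 and 49.7 CPM in male cultures 1 to 3. Both lines were below all primary cultures, and the log2 difference of -0.53 ± 0.12 (SE) passed the test with an adjusted p of 0.00900 by limma. Its partner Stat2 had 39.0 and 34.5 CPM in PMC-306 and PMC-303 and 43.5 ± 5.26 CPM (SD, n = 6) in primary cultures, and Irf1, an activator induced by interferon gamma, had 50.9 and 42.4 CPM beside 56.3 ± 6.39 CPM (SD, n = 6). Neither passed the test in the fit of both lines, with an adjusted p by limma of 0.202 for Stat2 and 0.134 for Irf1. Irf7, the amplifier of type I interferon production, was scarce, with 1.77 CPM in PMC-306 (95% interval 1.24 to 2.45, exact binomial), 0.823 CPM in PMC-303 (0.503 to 1.27) and 0.527 to 2.05 CPM in primary cultures. The intervals of the lines overlap, although the 2.02-fold ratio counts it among the members higher in PMC-306 than in PMC-303. By TPM, PMC-306 was above the primary range for Irf7, with 1.72 TPM beside 0.336 to 1.31 TPM, where by CPM it was within that range.

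Sp100, a component of nuclear bodies and a restriction factor for DNA viruses, differed between the lines. It had 45.5 and 16.4 CPM in PMC-306 and PMC-303, against 43.9, 49.8 and 41.8 CPM in female and 42.9, 46.6 and 50.9 CPM in male cultures. PMC-306 was within the primary range and PMC-303 was 2.80-fold below its mean. The gene lies beside near-identical copies on chromosome 1 in the mouse, so that the assignment of its reads is uncertain. In the fit of both lines its log2 difference of -0.74 did not pass the test, with an adjusted p of 0.0937 by limma. Without PMC-306 the log2 difference was -1.48, which rests on the single library of PMC-303.

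Among the negative regulators and the ubiquitin-like system, Usp18 stood out in PMC-306. Usp18 removes ISG15 from proteins and blocks the type I interferon receptor. It had 57.1 and 18.3 CPM in PMC-306 and PMC-303, 21.9, 8.79 and 9.07 CPM in female cultures 1 to 3, and 25.6, 15.9 and 13.8 CPM in male cultures 1 to 3. PMC-306 was 3.58-fold above the primary mean and above every culture, while PMC-303 was within the primary range. In the fit of both lines the log2 difference was 1.14 ± 0.52 (SE) with an adjusted p of 0.125 by limma. Without PMC-303 the log2 difference was 1.95, which rests on the single library of PMC-306. Isg15, the modifier that Usp18 removes, was under 1 CPM in all libraries as given above.

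Parp14, a mono-ADP-ribosyltransferase, fell in both lines. It had 20.6 and 17.7 CPM in PMC-306 and PMC-303, against 44.7, 47.4 and 36.8 CPM in female and 56.7, 48.4 and 52.1 CPM in male cultures, with a log2 difference of -1.30 ± 0.15 (SE) and an adjusted p of 0.000429 by limma. The neighbouring genes Dtx3l and Parp9 on chromosome 16, whose products form an E3 ubiquitin ligase complex, moved less. Dtx3l had 56.8 and 48.0 CPM in PMC-306 and PMC-303 and 74.7 ± 5.06 CPM (SD, n = 6) in primary cultures, a log2 difference of -0.51 with an adjusted p of 0.00381 by limma. Parp9 had 68.1 and 55.8 CPM and 63.5 to 75.7 CPM in primary cultures, and did not pass the test with an adjusted p of 0.155 by limma. The 5′ ends of Dtx3l (35746881 to 35759521, minus strand) and Parp9 (35758840 to 35792980, plus strand) overlap on GRCm39, and whether counting used strand is not given in the sources used here. Herc6, the ligase that conjugates ISG15 in mice, rose to 30.8 and 34.6 CPM in PMC-306 and PMC-303 from 21.4, 20.9 and 20.5 CPM in female and 23.0, 23.1 and 27.7 CPM in male cultures, with a log2 difference of 0.53 ± 0.12 (SE) and an adjusted p of 0.0121 by limma. Trim30a, a regulator of innate signalling, had 25.8 and 15.1 CPM in PMC-306 and PMC-303, both within the wide primary range of 5.43 to 32.3 CPM, and its reads may be shared with the adjacent Trim30 copies.

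The sensors and kinases held some of the strongest differences. Oas1a, an oligoadenylate synthetase activated by double-stranded RNA, had 7.37 CPM in PMC-306 and 0.247 CPM (6 counts, 95% interval 0.0906 to 0.538 CPM, exact binomial) in PMC-303. The primary cultures had a lowest value of 10.2, a median of 15.1 and a highest value of 18.6 CPM. Both lines were below every primary culture, 2.04-fold in PMC-306 and 44.0-fold in PMC-303 below the mean, and PMC-306 was 21.5-fold above PMC-303. The level in PMC-303 was 1.57% of the mean of the male cultures, beside the 0.977% to 1.55% of the Y-linked transcripts given above, and the part of RNA from other cells in it was not tested. The log2 difference over both lines, -3.22 ± 0.90 (SE), passed the test with an adjusted p of 0.0250 by limma, and the call was lost with the female or the male cultures alone as the control. Near-identical Oas1 copies lie beside Oas1a on chromosome 5, so that the split of reads between them is uncertain.

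Ifih1, the cytoplasmic sensor of long double-stranded RNA also known as MDA5, was likewise low in both lines. It had 0.982 CPM in PMC-306 (20 counts) and 0.535 CPM in PMC-303 (13 counts, 95% interval 0.285 to 0.915, exact binomial). Primary values were 4.55, 2.46 and 1.58 CPM in female and 8.28, 6.03 and 8.02 CPM in male cultures. The lines lay below every primary culture, and the log2 difference of -2.44 ± 0.63 (SE) had an adjusted p of 0.0172 by limma. The call was lost when PMC-303 was left out and when the female cultures alone were the control. Oas3, a sensor of long double-stranded RNA, had 0 and 3 counts in PMC-306 and PMC-303 and 0.827, 0.176 and 0.316 CPM in female and 0.613, 0.746 and 0.367 CPM in male cultures, and its call in the fit of both lines, set by the filter, was lost with an offset of 1 CPM and under 7 other alternatives.

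Oasl2 went the other way. This antiviral protein of the oligoadenylate synthetase family binds RNA. Its level was 3.73 CPM in PMC-306 and reached 1.15 CPM in PMC-303 (95% interval 0.766 to 1.67, exact binomial), beside 0.459, 0.176 and 0.791 CPM in female cultures and 0.664, 0.373 and 0.682 CPM in male cultures. PMC-306 was 6.14-fold and PMC-303 2.01-fold above the primary mean, each above all primary cultures, and the log2 difference of 1.91 ± 0.56 (SE) had an adjusted p of 0.0293 by limma. This call was lost under 6 of 15 alternatives, among them no filter on low counts and the cultures of either sex alone, and by TPM PMC-303 was within the primary range (0.569 beside 0.138 to 0.714 TPM). The kinase gene Eif2ak2, whose product PKR halts translation, had 37.2 and 43.9 CPM in PMC-306 and PMC-303 and 54.1, 52.4 and 37.5 CPM in female and 54.8, 48.4 and 44.7 CPM in male cultures, with an adjusted p of 0.227 by limma. Zbp1, a sensor that triggers necroptosis, was at or under the floor in all libraries except male culture 1, which had 1.63 CPM from 32 counts.

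**Figure D4:**
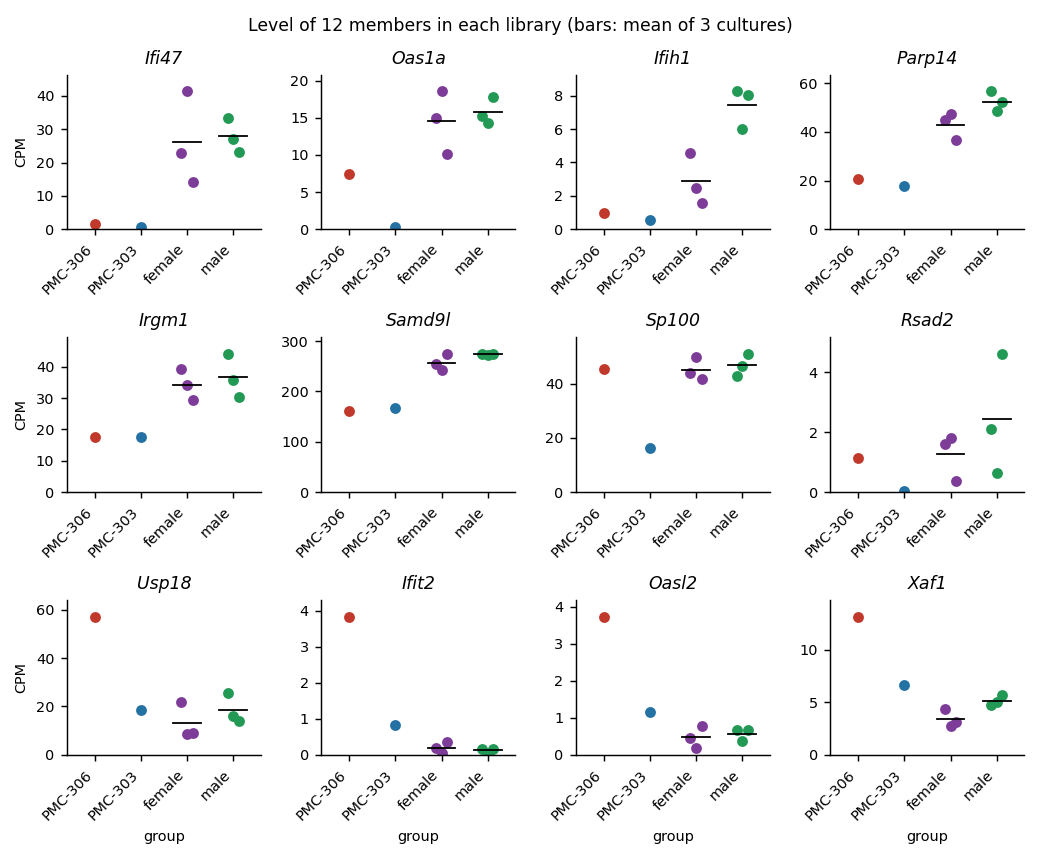
CPM of 12 members in every library, with PMC-306 and PMC-303 as single points, the 3 female and 3 male primary cultures as separate points and a bar at the mean of each sex. Both lines lie below all primary cultures for Ifi47, Oas1a, Ifih1, Parp14, Irgm1 and Samd9l, PMC-303 alone is low for Sp100 and Rsad2, and PMC-306 is highest for Usp18, Ifit2, Oasl2 and Xaf1.

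The antiviral effectors divided into silent genes, steady genes and a few that differed. Samd9l, by CPM the most abundant member, had 161 and 167 CPM in PMC-306 and PMC-303, against 254, 242 and 273 CPM in female and 274, 271 and 274 CPM in male cultures. Both lines were below all primary cultures, with a log2 difference of -0.69 ± 0.07 (SE) and an adjusted p of 0.000256 by limma. Bst2 also fell, to 25.1 and 27.6 CPM from 31.8 to 41.6 CPM, with a log2 difference of -0.50 and an adjusted p of 0.00927 by limma. Ifi35, a leucine zipper protein, had 35.8 and 39.5 CPM beside 41.3 ± 1.99 CPM (SD, n = 6) and did not pass the test, with an adjusted p of 0.220 by limma. By TPM, Ifi35, Dtx3l and Eif2ak2 in PMC-306 and Irf9 and Parp9 in PMC-303 were within the primary range, where by CPM they were below it.

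Ifit2 and Xaf1 were highest in PMC-306. Ifit2, a tetratricopeptide repeat protein that binds viral RNA, had 3.83 CPM in PMC-306 and reached 0.823 CPM in PMC-303 (20 counts), beside 0.184, 0.0439 and 0.369 CPM in female and 0.153, 0.0622 and 0.157 CPM in male cultures, where 4 of the 6 libraries had 3 counts or fewer. The fitted log2 difference over both lines, 2.97 ± 0.64 (SE), is given as a description, since the filter was passed only through the lines. Its paralogues Ifit1 and Ifit3 were at or near the floor in PMC-306, with 2 and 0 counts. Xaf1, an antagonist of the apoptosis inhibitor XIAP, had 13.2 and 6.67 CPM in PMC-306 and PMC-303, 4.41, 2.72 and 3.16 CPM in female and 4.75, 5.04 and 5.72 CPM in male cultures. Both lines were above all cultures by CPM, and the log2 difference of 1.15 ± 0.34 (SE) had an adjusted p of 0.0307 by limma. By TPM, PMC-303 was within the primary range for Xaf1, with 4.10 TPM beside 2.72 to 6.08 TPM. The higher counts lay in 1 of the 5 annotated transcripts counted, ENSMUST00000146233, with 214 counts in PMC-306 and 137 in PMC-303 against 12.3 to 38.7 counts in primary cultures.

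Rsad2 and Cmpk2, divergent neighbours on chromosome 12, were at most at 1 count in PMC-303. Rsad2, which encodes viperin and makes a chain-terminating nucleotide, had 1.13 CPM in PMC-306 and 1 count (0.0412 CPM) in PMC-303, and 1.61, 1.80 and 0.369 CPM in female and 2.09, 0.622 and 4.62 CPM in male cultures. PMC-303 was below every primary culture (95% interval 0.00104 to 0.229 CPM, exact binomial) and PMC-306 within their range. Cmpk2, a nucleotide kinase that supplies viperin's substrate, had 12 counts in PMC-306 and 0 in PMC-303, and 0 to 51 counts in primary cultures. Male cultures 1 and 3 were highest for both genes and female culture 3 was lowest for both. Neither gene passed the test over both lines, with an adjusted p by limma of 0.186 for Rsad2 and 0.497 for Cmpk2.

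Ifi27 had 35.0 and 12.97 CPM in PMC-306 and PMC-303, against 55.9, 19.3 and 34.3 CPM in female and 36.6, 69.0 and 48.6 CPM in male cultures. PMC-303 was 3.37-fold below the primary mean, but the primary range was wide and the adjusted p over both lines was 0.183 by limma. Epsti1 had 22.7 and 28.6 CPM in PMC-306 and PMC-303, above 15.6, 5.40 and 14.5 CPM in female and 19.4, 13.9 and 4.04 CPM in male cultures. Female culture 2 and male culture 3 were lowest, and the difference did not pass the test with an adjusted p of 0.128 by limma.

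Of the immunity-related GTPases, Ifi47 had the lowest level in the lines relative to primary cells of all members called in the fit of both lines. Ifi47, also known as IRG-47, had 1.52 CPM in PMC-306 (95% interval 1.03 to 2.16, exact binomial) and 0.823 CPM in PMC-303 (0.503 to 1.27). Primary values were 23.0, 41.5 and 14.2 CPM in female and 33.5, 27.2 and 23.3 CPM in male cultures. The lines were 16.8-fold and 29.5-fold below the primary mean, far outside the primary range, and the log2 difference of -4.40 ± 0.38 (SE) had an adjusted p of 0.000127 by limma. The call held under all 15 alternatives, as it did for Parp14, Irgm1 and Dtx3l. Within the primary cultures the counts were assigned to different transcripts of Ifi47. Transcript ENSMUST00000046704 had 388 counts in female culture 2 and 228 counts in male culture 3 and 0 counts in the other 6 libraries, while ENSMUST00000109202 had 149 to 650 counts in the 6 primary cultures, 31 in PMC-306 and 20 in PMC-303.

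Irgm1, a regulator of the other GTPases and of autophagy, fell less and by the same amount in both lines. It had 17.6 and 17.7 CPM in PMC-306 and PMC-303, against 39.4, 34.0 and 29.5 CPM in female and 44.1, 35.7 and 30.4 CPM in male cultures, with a log2 difference of -0.99 ± 0.15 (SE) and an adjusted p of 0.00164 by limma. Its relatives Irgm2 and Igtp did not pass the test. Irgm2 had 32.3 and 39.4 CPM in PMC-306 and PMC-303 and 33.6, 31.4 and 37.3 CPM in female and 39.2, 27.4 and 30.9 CPM in male cultures, with an adjusted p of 0.593 by limma. Igtp had 18.8 and 24.3 CPM, and 19.6, 18.7 and 22.0 CPM in female and 20.2, 19.0 and 17.9 CPM in male cultures, with an adjusted p of 0.439 by limma. PMC-303 was above the primary range for both genes by a small margin. Igtp (58089840 to 58098417) and Irgm2 (58090444 to 58113615) overlap on the plus strand of chromosome 11 of GRCm39, so that the division of reads between them is uncertain. Ifi47 (48967412 to 48987813) and Irgm1 (48752795 to 48763164) lie in another cluster of the same chromosome with Tgtp1, which had 1 count in PMC-306 and 0 counts in every other library. Tgtp2, its close copy, had 2.41 and 1.03 CPM in the lines and 9.18 to 32.7 CPM in primary cultures, so that the split of reads between the copies is uncertain.

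Between the lines, 8 members were at least 2-fold higher in PMC-306 (Ifi27, Ifit2, Irf7, Oas1a, Oasl2, Rsad2, Sp100 and Usp18) and 0 were lower, of 26 with at least 1 CPM in either. Over all 12808 genes, 6.19% were higher in PMC-306 and 6.92% lower. Of the members called, Ifit2, Irf7, Oas1a and Rsad2 met the 1 CPM limit only through PMC-306, so that their direction was set by the limit. This is the contrast in which the set was chosen, and the guanylate-binding proteins that led to the choice were much further apart, with Gbp6 at 242 and 1.23 CPM, Gbp4 at 71.5 and 0.123 CPM and Gbp8 at 14.5 and 0 CPM in PMC-306 and PMC-303, and the closest was Gbp7 at 66.4 and 55.2 CPM. The ratio was largest for Oas1a, followed by Rsad2 (23 counts beside 1), Ifit2 (4.26-fold), Usp18 (3.10-fold), Oasl2 (3.06-fold) and Sp100 (2.77-fold). Members just outside the 2-fold limit were Xaf1 (1.96-fold) and Ifi47 (1.76-fold), and just inside it was Irf7 (2.02-fold). At the other end were Igtp, Epsti1, Irf9, Irgm2, Eif2ak2 and Herc6, with log2 ratios of PMC-306 to PMC-303 of -0.37, -0.33, -0.29, -0.28, -0.24 and -0.17.

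The comparison of female with male primary cultures is independent of the lines. No member passed the test (0 of 29 tested by limma, smallest adjusted p 1.00), while over all 13754 genes 0.0145% were called higher in female and 0.0291% higher in male cultures. At an unadjusted p under 0.05, 4 members (Ifih1, Trim30a, Xaf1 and Parp14) and 459 of all genes (3.34%) were found, and all 4 members were lower in female cultures. The log2 difference was below 0 in 25 of the 29 members, with a median of -0.13 where the median of all genes was 0.01. Female and male values did not overlap for 6 members (Herc6, Ifi35, Ifih1, Parp14, Trim30a and Xaf1), each higher in every male culture, and for 0 members in the other direction. Over all genes 4.01% were higher in every male culture and 3.98% in every female culture. The largest of these differences was that of Ifih1, with the values given above and a log2 difference of -1.46 ± 0.38 (SE), followed by Trim30a with 15.7, 14.9 and 5.43 CPM in female and 32.3, 29.9 and 17.2 CPM in male cultures and a log2 difference of -1.23 ± 0.45 (SE).

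**Figure D5:**
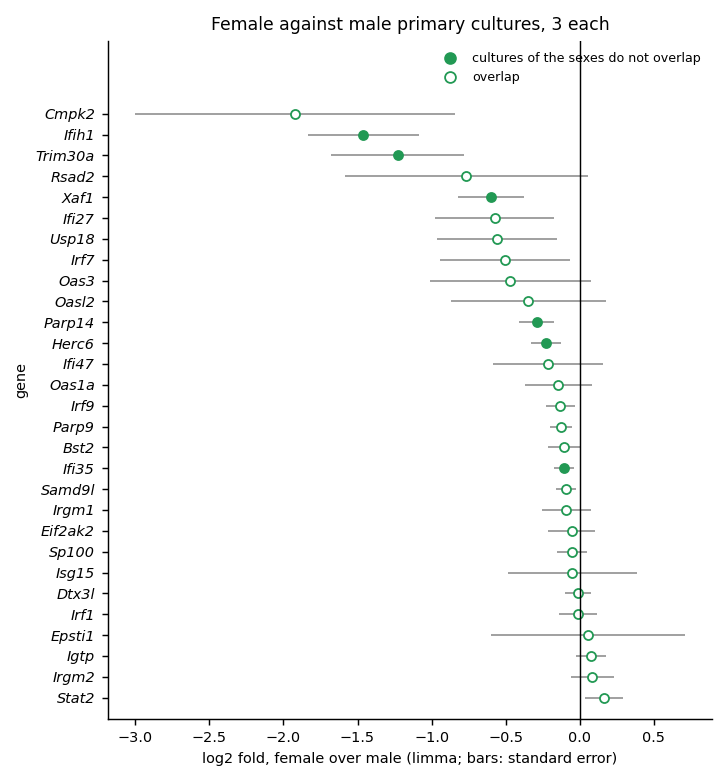
Log2 fold of female over male primary cultures (3 each) for the 29 members tested, with bars for the standard error from limma and filled points where the cultures of the sexes do not overlap. Of the 29 points, 25 lie left of 0, and the 6 filled points are all on that side, but none passes the test after adjustment.

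The single cultures differed in the same measure. Against the mean of the other 5, male culture 1 was above in 21 of the 25 members with at least 1 CPM, with a median log2 deviation of 0.18, and female culture 3 was above in 6, with a median of -0.18. Over all 12504 genes the medians of these cultures were 0.01 and 0.01. Male culture 1 also had the highest Usp18, Irgm1, Parp14, Dtx3l and Zbp1, and among other interferon-inducible genes the highest B2m (1482 CPM, where the other cultures had 454 to 853 CPM) and Gbp6 (31.1 CPM, where the others had 0.105 to 5.28 CPM). Other genes of the wider lists, among them Gbp2b, Ifi203, Slfn5 and Ifitm1, were highest in another primary culture. The highest mitochondrial share was also that of male culture 1, 6.97% where the other primary cultures had 4.02% to 5.44%. Male culture 1 had the highest level of the T cell marker Cd4 too, 3.22 CPM where the others had at most 0.211 CPM. Its Cd3g was 0.255 CPM, above the floor, where the others had at most 0.105 CPM. Cd3e, Cd3d and Cd8a were at or under the floor. The part of the mitochondrial share and of these markers in the member values was not tested.

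Of 21 interferon ligand genes, none reached 1 CPM, the highest value being 0.333 CPM of Ifnz in female culture 1, and Ifnb1 and Ifng had 0 counts in every library. The receptors were present. Ifnar1, a chain of the type I receptor, had 79.1 and 61.0 CPM in PMC-306 and PMC-303, and 44.5 to 58.4 CPM in primary cultures, and Ifnar2 had 35.6, 28.6 and 23.2 to 34.3 CPM. For interferon gamma, Ifngr1 had 23.6, 18.3 and 16.9 to 21.3 CPM, and Ifngr2 had 16.5, 11.4 and 3.58 to 5.30 CPM. Ifnar1 and Ifngr2 rose and Il10rb fell in the lines by limma, of 5 receptors tested, where 18.3% of all genes rose and 15.5% fell, and Ifnlr1 of the type III receptor was at or under the floor. Of 12 tested signalling genes 1 rose (Ptpn6) and 3 fell (Irf2, Irf3 and Irf5), beside the same shares of all genes. Jak1, the kinase shared by the receptors, was 152 CPM in PMC-306 where PMC-303 had 330 CPM and the primary cultures 280 to 318 CPM. Jak1 lies on chromosome 4 of GRCm39 (101008838 to 101122487). The paper reports a heterozygous interstitial deletion on this chromosome in the line with the lower value, and not in the other line. Whether the deletion takes in Jak1, and its part in the lower value, was not tested.

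Among 13 further sensors and adaptors tested by limma, 1 rose and 6 fell in the lines. Cgas, the sensor of cytosolic DNA, rose to 17.5 and 24.2 CPM in PMC-306 and PMC-303 from 2.94 to 5.31 CPM, and its adaptor Sting1 fell to 17.1 and 12.8 CPM from 18.1 to 27.6 CPM. Aim2, Dhx58, Myd88 and Trex1 were also among those that fell. Of 67 other interferon-inducible genes, 50 were tested, 8 rose and 21 fell, beside the 18.3% and 15.5% of all genes. The lists were drawn up with earlier results of these data known. Among these 67 genes the largest ratios of PMC-306 to PMC-303 were those of Ifi203 (10.5 and 0.0823 CPM, 2 counts in PMC-303), Ifi27l2a (20.7 and 0.288 CPM) and Ifitm1 (59.8 and 13.01 CPM), and the smallest those of Ly6e (3.68 and 12.6 CPM), Ube2l6 (3.00 and 5.06 CPM) and Oas1c (2.26 and 3.58 CPM).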

How the data were processed

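RNA-seq libraries from total RNA (stranded kit) of 2 PMC lines and 6 primary cultures were analysed. Per the submitters' processing notes reads were handled with Trim Galore 0.6.7, STAR 2.7.9a and Salmon 1.5.2 on GRCm39. The deposited tables hold the estimated counts of genes and transcripts and the TPM of genes, as the authors made them, and in them a spreadsheet program had rewritten 3.37% of the gene count cells as dates or without a decimal point. These were restored to counts, and the decimal point of the deposited TPM values was placed anew. Counts were scaled by the trimmed mean of M values, computed directly, to CPM. Because the restored counts are not the original ones, no count model was used. Both lines were compared with primary cultures, and female with male cultures, in limma 3.58.1 (R 4.3.3) on log2(CPM + 0.1), with a trend of variance on mean, 2-sided, with Benjamini-Hochberg adjustment over all genes tested and a threshold of 0.05. Genes needed about 10 counts in 2 (lines) or 3 (sexes) libraries and 15 in total. Single lines were called at 2-fold outside the range of the 6 cultures, among genes with at least 1 CPM, with no p-value. Fold changes on the log2(CPM + 0.1) scale understate changes of low genes. A line with 3 or fewer counts was set to 3 counts before a fold. The primary mean was replaced by this floor only where no primary culture had a count. The limma differences used no floor. The test steps were checked on simulated data, with a mean of at least 10 counts per gene and the same fold in both lines. Low counts and lines that differ were not covered by this check. P-values measure only the spread between these samples, which may be technical.

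Members and gene lists were chosen with earlier results of these data known. Values in all samples were given for the 6 members with the largest and the 6 with the smallest ratio of PMC-306 to PMC-303, the 10 largest differences called by limma, the 3 most variable members and members with a culture far from the others, and for the wider lists the 3 largest differences between the lines in each direction. Alternatives were another scaling, offset, filter or fold, genes without a rewritten cell, the replicate number as a block, cultures of 1 sex, and leaving out each library. Per-transcript counts were used for Ifi47 and Xaf1 and to check the restoration. Positions are from GENCODE on GRCm39 and promoter windows from RefSeq. Some genes of the wider lists are not reported here.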

Additional observations from a re-analysis of the deposited data

Results flagged for a closer look

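Among the 25 members with a mean of at least 1 CPM in primary WT PMCs, 1 had a culture that stood far from the others. Herc6 was 27.7 CPM in male culture 3 and 23.1 CPM in the next highest of the 6 primary cultures, a gap over the whole range that exceeds Dixon's critical value of 0.625 for 6 samples. Chance alone flags about 1 in 20 such groups, and 25 were searched. Both lines, at 30.8 and 34.6 CPM, were above this culture too.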

How the results depend on the processing

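No member that was called changed direction under any alternative run. The direction of members that were not called was not followed, and folds near 0 in PMC-306 (Sp100, Irgm2, Igtp and Parp9) are smaller than the shift of total count scaling below. Sp100 without PMC-306 and Usp18 without PMC-303 entered the counts below. Their sizes, given above, each rest on the single library of the line left in. Of 14 members called for both lines against primary WT PMCs, median-of-ratios and total count scaling left all 14 called, and Parp14, Irgm1, Dtx3l and Ifi47 were called under all 15 alternatives. Total count scaling moved the median of all genes by 0.12 in PMC-306 and 0.11 in both lines together, and raised the share of higher calls among all genes from 54.1% to 67.1%. Members higher in both lines numbered 1 with female or male cultures alone as controls in place of 4, and members lower numbered 5 with female cultures alone in place of 10. Leaving out each library gave 1 to 4 higher and 8 to 10 lower members. Without PMC-306, 1 was higher, and Irf9, Oasl2, Oas3, Xaf1, Ifit2 and Bst2 were no longer called. Without PMC-303 the calls of Ifih1 and Herc6 were lost. Without female culture 1, 2 members were higher, and Oasl2, Oas3 and Xaf1 were lost. Xaf1 was lost without female culture 3, Oas3 without male culture 1, and Oasl2 and Oas3 without male culture 2. Where 1 line was left out, the lone line was assumed to vary like the primary cultures.

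For PMC-306 the 4 higher members became 2 at 10 CPM or 5-fold, and the 5 lower became 3 with total counts, an offset of 1 CPM or female cultures alone and 1 at 5-fold, while leaving out a culture gave 4 to 5 and 4 to 5. For PMC-303 the 2 higher became 1 with median-of-ratios, an offset of 1 CPM, 10 CPM or male cultures alone and 0 at 5-fold, and the 8 lower became 4 at 5-fold. Leaving out a culture gave 1 to 2 higher (1 without female 1, female 2 or male 2) and 7 to 9 lower. Of 8 members higher in PMC-306 than in PMC-303, 5 were left among genes with no rewritten cell, 3 at 10 CPM and 2 at 5-fold, all with fewer genes tested or a stricter limit. Over all genes the calls of both lines fell from 2659 higher and 2254 lower to 1624 and 1460 among genes with no rewritten cell, and to 1327 and 832 against female cultures. The cause of the other shifts was not tested.

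With the replicate number as a block, 0 members were higher and 0 lower in female cultures, as without it. The numbers are only shared labels, and deviations of same-numbered cultures correlated at 0.45, -0.23 and 0.31, so the block was not taken as a pairing. At the shallowest depth 3 counts correspond to 0.187 CPM, which limits Isg15, the Ifit and Mx genes, Oas3, Zbp1 and Cmpk2.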
